A study of Mus musculus with 12 samples.

Results

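The Hist1 cluster on mouse chromosome 13 is the main array of replication-dependent histone genes. Its chromatin was read from 11 region lists of ChIP-seq, a method that sequences the DNA bound by a protein or a modified histone. The cluster was taken as 2 parts in the mm9 build: part 1 at chr13:21790001-22140000 (350 kb) and part 2 at chr13:23610001-23870000 (260 kb). Every listed region with at least 1 bp in either part was a member, which gave 340 of the 313566 regions of all lists. The members were 6 KDM6A regions of female KO and 1 of female WT, 22 MLL4 regions of female KO and 1 of female WT, and 57, 51, 56 and 64 H3K4me1 regions of female KO, female WT, male KO and male WT. The female WT line added 45 H3K4me3 regions, 36 H3K27ac regions and 1 H3K27me3 region.

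The cells were untreated lines from murine pancreatic tumours, grown in F12/DMEM with EGF, and labelled by sex and as genotype KDM6A-KO or KDM6A-WT. The cell type field calls every line K6A null, the WT lines included, so KO and WT follow the genotype field. Each group held 1 library, with no replicate, and no label gave the number of clones or tumours behind a line, so differences between lists carry no test. The MLL4 libraries have KMT2D in their antibody field. Reads inside listed regions numbered from 108165 for MLL4 of WT to 17526099 for H3K4me3, and total depth is unknown. Absence from a list does not show absence of signal, only that none passed the threshold used for it. Intervals in brackets are exact 95% Clopper-Pearson intervals over regions, which are not replicates, and cover counting error only.

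Replication-dependent histone genes are transcribed mainly in S phase, when new DNA has to be packed into nucleosomes. They lack introns, and many near-identical copies lie side by side. H3K4me3 marks active promoters and H3K27ac active promoters and enhancers, while H3K4me1 is typical of enhancers and of the shoulders of promoters. MLL4 is a methyltransferase that lays down H3K4me1. KDM6A removes methyl groups from H3K27 and is a subunit of the MLL3 and MLL4 complexes, and H3K27me3 is the repressive mark it acts on.

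The RefSeq table at hand describes another build, GRCm38, so gene names and their order could be used and no gene was assigned to a region. It lists 56 genes of the family on chromosome 13: 6 of linker histone H1, 15 of H2A, 15 of H2B, 9 of H3 and 11 of H4. All but H2ac14 and H2ac5-ps, 54 in number, are protein coding. In 10 places an H2A and an H2B gene are neighbours that run away from each other. The stretch also holds Zfp184, Pom121l2, Prss16 and the iron regulator Hfe, together with 75 genes of the vomeronasal receptor family Vmn1r and 77 tRNA genes. After H1f1 follow Trim38 and the Slc17a transporter genes.

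Promoter sequences from RefSeq were found for 51 of the 56 genes. One promoter per core histone is shown here, because the islands described below have the marks of promoters and the promoters of this family have letters in common. Each is the 250 bases before the annotated start, chromosome 13, GRCm38.p6, 5′ to 3′ on the strand of the gene. Each is the first gene of its class by symbol with a promoter in the table, leaving out the pair H2ac1 and H2bc1, which lies beyond the Slc17a genes. Capitals mark CCAAT and TATAAA on either strand, so ATTGG is CCAAT read on the other strand.
H2ac4 (plus strand): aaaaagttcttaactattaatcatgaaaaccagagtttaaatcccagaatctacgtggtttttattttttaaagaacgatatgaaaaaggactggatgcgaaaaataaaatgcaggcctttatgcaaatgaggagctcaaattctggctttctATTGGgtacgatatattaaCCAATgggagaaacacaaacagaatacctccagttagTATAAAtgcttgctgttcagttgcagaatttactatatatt
H2bc3 (plus strand): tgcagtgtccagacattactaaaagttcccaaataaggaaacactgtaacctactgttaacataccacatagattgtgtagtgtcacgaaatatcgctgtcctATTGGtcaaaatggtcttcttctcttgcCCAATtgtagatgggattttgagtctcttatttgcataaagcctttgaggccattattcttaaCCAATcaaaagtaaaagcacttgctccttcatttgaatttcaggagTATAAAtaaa
H3c2 (plus strand): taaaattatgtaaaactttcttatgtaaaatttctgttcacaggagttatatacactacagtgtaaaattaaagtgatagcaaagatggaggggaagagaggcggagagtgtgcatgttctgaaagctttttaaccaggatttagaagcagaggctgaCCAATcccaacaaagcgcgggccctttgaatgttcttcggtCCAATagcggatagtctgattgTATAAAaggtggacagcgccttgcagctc
H4c1 (minus strand): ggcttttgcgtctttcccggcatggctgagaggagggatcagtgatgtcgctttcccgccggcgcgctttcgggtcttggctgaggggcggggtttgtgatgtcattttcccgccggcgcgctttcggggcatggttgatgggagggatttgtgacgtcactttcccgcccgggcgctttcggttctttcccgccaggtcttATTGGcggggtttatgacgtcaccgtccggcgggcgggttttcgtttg

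CCAAT, the letters bound by the factor NF-Y, occurred on either strand in 40 of 40 promoters of the H1, H2A, H2B and H3 genes and in 3 of 11 promoters of the H4 genes. Among all 27025 promoters of that table with the same length, 34.5% held it. TATAAA, the core of the TATA box, occurred on either strand in 26 of the 51 promoters (51.0%), against 12.97% of all promoters. The 2 motifs can overlap by 1 base, an A or a T at their ends. Promoters of divergent neighbours share bases and near-identical gene copies share sequence, so the promoters are not independent of each other. A match describes the letters only.

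H3K4me3 formed one of the densest runs of islands in the genome over the cluster. Part 1 held 27 islands (77.1 per Mb) and part 2 held 18 (69.2 per Mb), against 8.59 per Mb over the rest of chromosome 13 and 9.53 per Mb over all chromosomes. When all chromosomes, the cluster included, were laid out in windows of 350 kb, none of the 7330 windows held 27 or more H3K4me3 regions. The highest count was 26 and the median 2. Of the 9871 windows of 260 kb, 26 held at least 18. The windows lay on a fixed grid that can split dense runs, while the parts were set around the cluster. The counts are therefore not like for like. H3K4me3 covered 204.4 kb of the cluster (33.5% of its bases), against 2.88% over all chromosomes. The interval of 1470 kb between the parts held 18 islands and was covered to 5.47%.

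The H3K4me3 islands were longer than most of their list. Their median length was 3800 bp, against 2400 bp over the whole list, and their median number of reads was 821, against 319.5. By reads, 18 of 45 exceeded 75% of the list. By reads per kb the median was 196, against 131 over the whole list, and 4 of 45 exceeded 75% of it. The island with the most reads, chr13:23607601-23620200, held 2714 reads over 12.6 kb and exceeded 97.1% of the list. It was followed by chr13:21869201-21881200 with 2474 reads and chr13:23620801-23630400 with 2401 reads, and then by chr13:21806601-21815600 with 1897 reads and chr13:23661001-23669800 with 1861 reads. The weakest island, chr13:21882601-21883400, held 38 reads. Islands of this length could cover several of the closely spaced histone genes, if genes lie as close there as in the gene table, and the number of islands is not a number of promoters.

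H3K27ac followed the H3K4me3 islands closely. All 36 H3K27ac regions of the cluster overlapped H3K4me3, against 65.0% of all H3K27ac regions, and 91.8% of their bases lay under H3K4me3, against 51.4% over all chromosomes. Acetylated stretches without H3K4me3, as distal enhancers have, were thus few in the cluster in the female WT line. H3K4me3 covered 33.5% of the cluster and 2.88% over all chromosomes, and the part of this in these shares was not tested. In the other direction 35 of 45 H3K4me3 islands carried H3K27ac (77.8% [62.9 to 88.8]), close to the 82.9% of the whole list. H3K27ac was led by chr13:23829601-23845400 with 1056 reads over 15.8 kb. The next were chr13:23621401-23631000 with 585 reads, chr13:23672601-23680400 with 529, chr13:23641401-23649400 with 505 and chr13:23661201-23669800 with 462. All of these leading 5 lay in part 2.

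The 10 islands without H3K27ac all lay in part 1, where 17 of 27 islands were acetylated, while all 18 islands of part 2 were. Islands with H3K27ac held a median of 1196 H3K4me3 reads (41 to 2714) and those without it 145 (38 to 821). The ranges overlapped. The strongest island without H3K27ac was chr13:21973201-21976400 with 821 reads. The 10 lay between chr13:21882601 and chr13:22108800, and 4 of them held fewer than 100 reads.

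**Figure D1:**
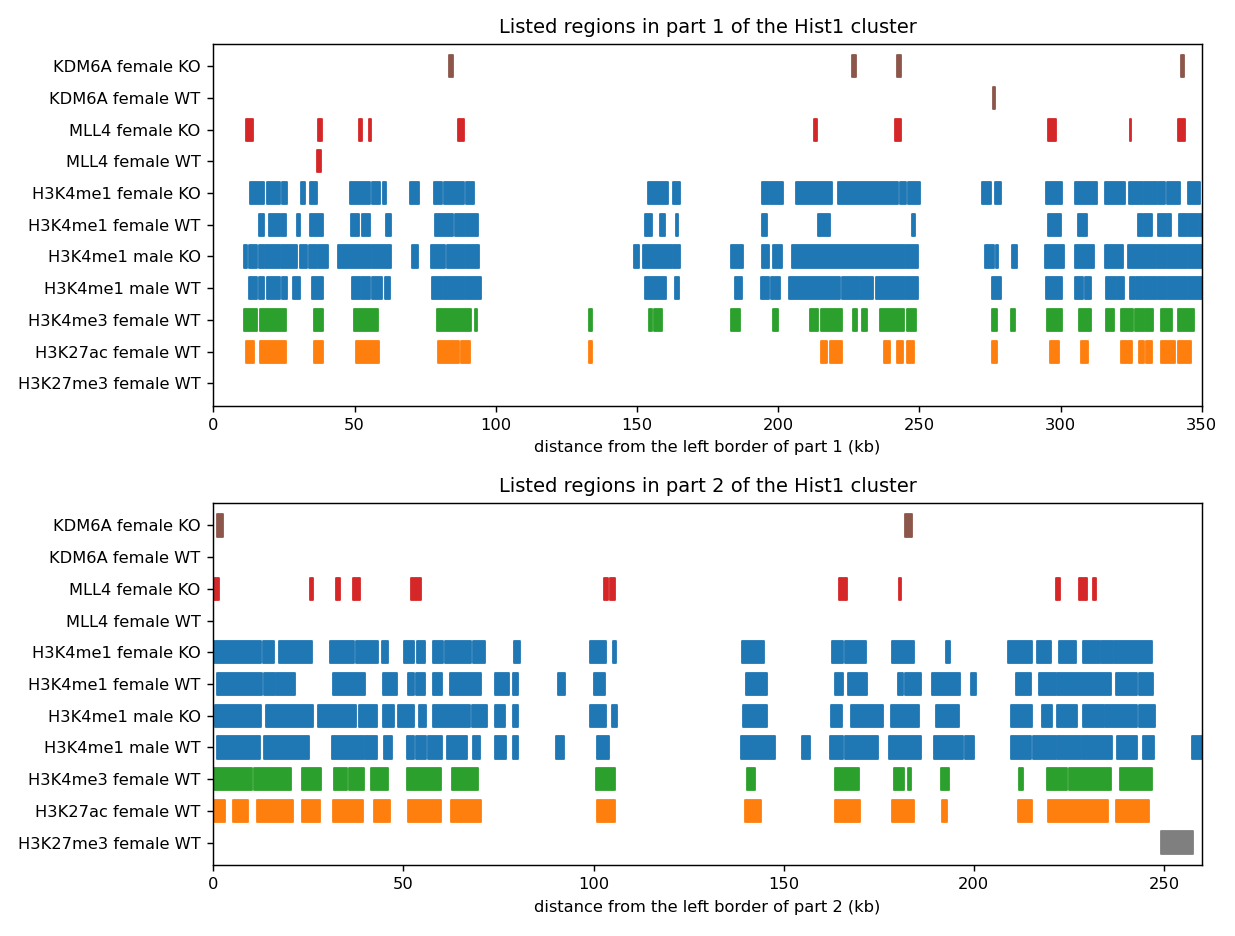
Listed regions of each library across part 1 (upper panel) and part 2 (lower panel), with distance from the left border of the part in kb on the x axis and 1 row per library. Bars are regions. H3K4me3 has 45 regions, of which 35 overlap H3K27ac, and all 36 H3K27ac regions overlap H3K4me3. MLL4 appears in 22 places in female KO and 1 in female WT, and H3K27me3 has 1 region, at the right end of part 2.

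H3K27me3 was nearly missing. None of the 45 H3K4me3 islands overlapped it [0 to 7.87%], against 16.0% of the whole H3K4me3 list. Part 1 held no H3K27me3 region. Part 2 held 1, chr13:23859201-23867800 with 169 reads, which lay beyond the last H3K4me3 island of the part and overlapped no H3K27ac region. H3K27me3 covered 1.41% of the cluster, against 7.11% of the rest of chromosome 13 and 10.5% over all chromosomes. The mark was listed in the female WT line only, so its state in KO is not known from these lists.

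MLL4 was listed at many of these islands in the female KO line and at 1 in the female WT line. The KO list held 22 regions in the cluster, 10 in part 1 and 12 in part 2, over 33.8 kb. The WT list held 1 region, chr13:21826801-21828000 with 40 reads, over 1.2 kb, and it overlapped a KO region with 46 reads, chr13:21827001-21828400. Over all chromosomes the KO list had 6.17 times as many regions as the WT list, and over the rest of chromosome 13 it had 8.25 times as many (429 against 52). Of the 22 KO regions, 1 overlapped an MLL4 region of WT, against 4.77% of all MLL4 regions of KO. With the KO list cut to the number of WT regions by reads, 6 MLL4 regions of KO stayed in the cluster, against 1 of WT.

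The MLL4 regions of the cluster were of ordinary strength for their list. The leading one, chr13:22085401-22088400, held 96 reads and exceeded 95.4% of the list. It was followed by chr13:23608601-23611400 with 92 reads, chr13:22131401-22134200 with 78, chr13:21801601-21804000 with 72 and chr13:22031401-22033600 with 71. The weakest, chr13:22114401-22114800, held 21 reads. Their median was 43 reads, against 40 over the whole KO list. Their number stood out: MLL4 of KO covered 5.54% of the cluster, against 0.519% of the rest of chromosome 13 and 0.770% over all chromosomes. This was not particular to MLL4. The KDM6A list of the same KO line covered 1.41% of the cluster, against 0.240% of the rest of chromosome 13 and 0.377% over all chromosomes. How far the density of H3K4me3 islands sets these values was not tested. Of all windows of the size of each part, on the same fixed grid, 4.24% held at least as many MLL4 regions of KO as part 1 and 1.80% as many as part 2.

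Every MLL4 region of KO in the cluster lay on a promoter-like island of the female WT line. All 22 overlapped H3K4me3 [84.6 to 100%], against 39.2% of the whole MLL4 list of KO, and 21 of 22 overlapped H3K27ac, against 51.3%. H3K4me1 of female KO overlapped 21 of 22, against 56.2%, and H3K4me1 of female WT 16 of 22, against 58.5%. None overlapped H3K27me3, against 3.83%. The exception without H3K27ac was chr13:22002801-22003800 with 29 reads. H3K4me3 covered 33.5% of the cluster and 2.88% over all chromosomes, so an overlap of 1 bp is easier to reach in the cluster. The part of this in the shares was not tested.

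Seen from the islands, 19 of 45 H3K4me3 islands carried MLL4 of KO (42.2% [27.7 to 57.8]), against 18.7% of the whole list. MLL4 of WT was at 1 of 45, against 3.8%. Islands with MLL4 of KO held a median of 1362 H3K4me3 reads (255 to 2714) and those without it 454.5 (38 to 2401), so the ranges overlapped widely. Among islands that exceeded 75% of the list by reads, 12 of 18 in the cluster carried MLL4 of KO, against 27.7% over all chromosomes. Among islands with H3K27ac the cluster had 18 of 35, against 22.3% over all chromosomes. The H3K4me3 and H3K27ac lists are from the WT line and the MLL4 list is from the KO line, so these overlaps join lists of 2 lines.

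**Figure D2:**
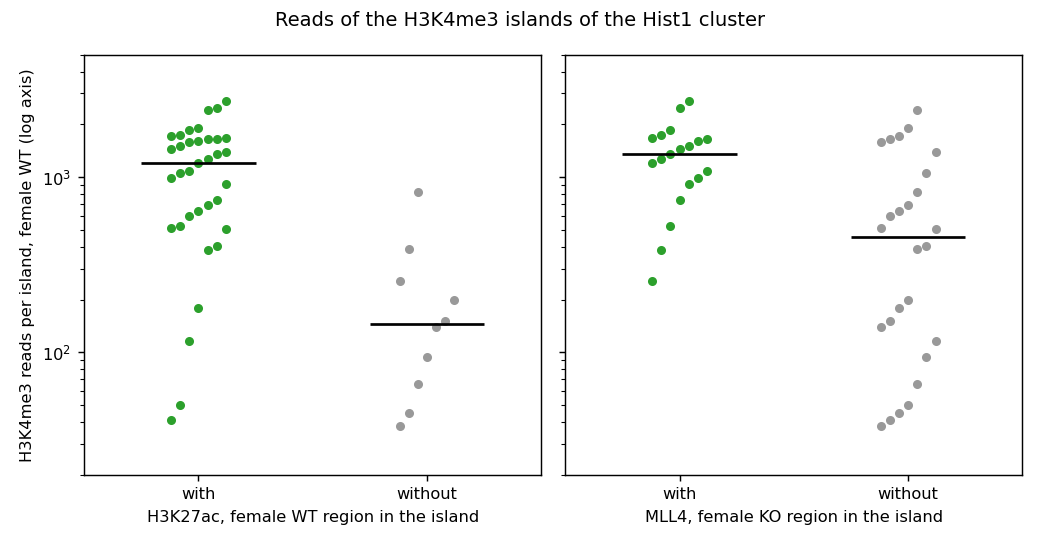
H3K4me3 reads of each of the 45 islands of the female WT line (log axis), split by presence of an H3K27ac region of female WT (left panel) and of an MLL4 region of female KO (right panel). Points are islands and lines are medians: 1196 reads with and 145 without H3K27ac, 1362 with and 454.5 without MLL4.

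KDM6A of KO had 9.84 regions per Mb of the cluster, against 1.52 over the rest of chromosome 13 and 2.32 over all chromosomes. KDM6A of WT had 1.64 per Mb, from 1 region, against 0.960 and 1.11. None of the 6 KO regions overlapped the one of WT [0 to 45.9%]. Of all KDM6A regions of KO 4.36% overlapped one of WT, a share inside that interval. The female KO line held 6: chr13:23792001-23793800 with 46 reads, chr13:22032001-22033400 with 40, chr13:23611001-23612600 with 39, chr13:21873601-21875000 and chr13:22016201-22017600 with 38 each, and chr13:22132601-22133600 with 33. The female WT line held 1, chr13:22066201-22066800 with 29 reads over 600 bp. By reads, the strongest KO region exceeded 60.8% of its list and the WT region 2.70% of its own. By reads per kb the short WT region exceeded 96.0% of its list and the KO region chr13:22132601-22133600 exceeded 80.1%, while the other 5 of KO exceeded 7.78% to 45.9%. Over all chromosomes the KO list had 2.09 times the regions of the WT list. Since the line is labelled KDM6A-KO, its 6 regions cannot be read as binding of KDM6A, and what gave them was not tested.

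The KDM6A regions of both genotypes lay on H3K4me3 islands of the female WT line. In KO 6 of 6 overlapped H3K4me3 [54.1 to 100%], against 26.6% of the whole KDM6A list of KO, and in WT the single region did, against 28.9%. H3K4me3 covered 33.5% of the cluster and 2.88% over all chromosomes, and the part of this in these shares was not tested. The KO list touched 6 of 45 islands, against 6.11% of the whole H3K4me3 list, and the WT list 1 of 45, against 3.27%. Of the 22 MLL4 regions of KO, 3 overlapped a KDM6A region of KO (13.6% [2.91 to 34.9]), near the 15.4% of the whole MLL4 list. With the KO list cut to the number of WT regions, 1 KDM6A region of KO was left in the cluster, against 1 of WT.

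H3K4me1 was spread over the cluster in all 4 lines. Female KO covered 259.2 kb (42.5% of the bases) and female WT 186.2 kb (30.5%). Male KO covered 315.2 kb (51.7%) and male WT 288.8 kb (47.3%). In each sex the KO list covered more of the cluster than the WT list, by a ratio of 1.39 in the female and 1.09 in the male lines. Over all chromosomes the KO lists covered less, with ratios of 0.671 and 0.759, and over the rest of chromosome 13 the ratios were 0.578 and 0.687. Read totals depend on depth and threshold and are not levels. The reads in these regions were 10192 in female KO and 6790 in female WT, and 18580 in male KO and 15144 in male WT. Against all reads of the list they made up 0.154% in female KO and 0.0682% in female WT, and 0.172% in male KO and 0.105% in male WT.

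The surplus of KO was in part 1. There female KO covered 145.2 kb and female WT 71.4 kb, a ratio of 2.03. Male KO covered 181.2 kb and male WT 148.8 kb, a ratio of 1.22. In part 2 female KO covered 114.0 kb and female WT 114.8 kb, and male KO 134.0 kb and male WT 140.0 kb, ratios of 0.993 and 0.957. Among all windows of 350 kb that were covered to at least 20% on average over KO and WT, as part 1 was in both sexes, 237 of 879 (27%) had more bases under H3K4me1 in KO than in WT in the female lines and 266 of 1030 (25.8%) in the male lines. More bases in KO was thus the less common direction and was not rare. The surplus was not limited to the cluster as taken here. In the interval between the parts female KO covered 125.4 kb and female WT 60.2 kb, a ratio of 2.08, and male KO 150.6 kb and male WT 114.8 kb, a ratio of 1.31. In the 250 kb before part 1 the ratios were 2.13 and 1.31.

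**Figure D3:**
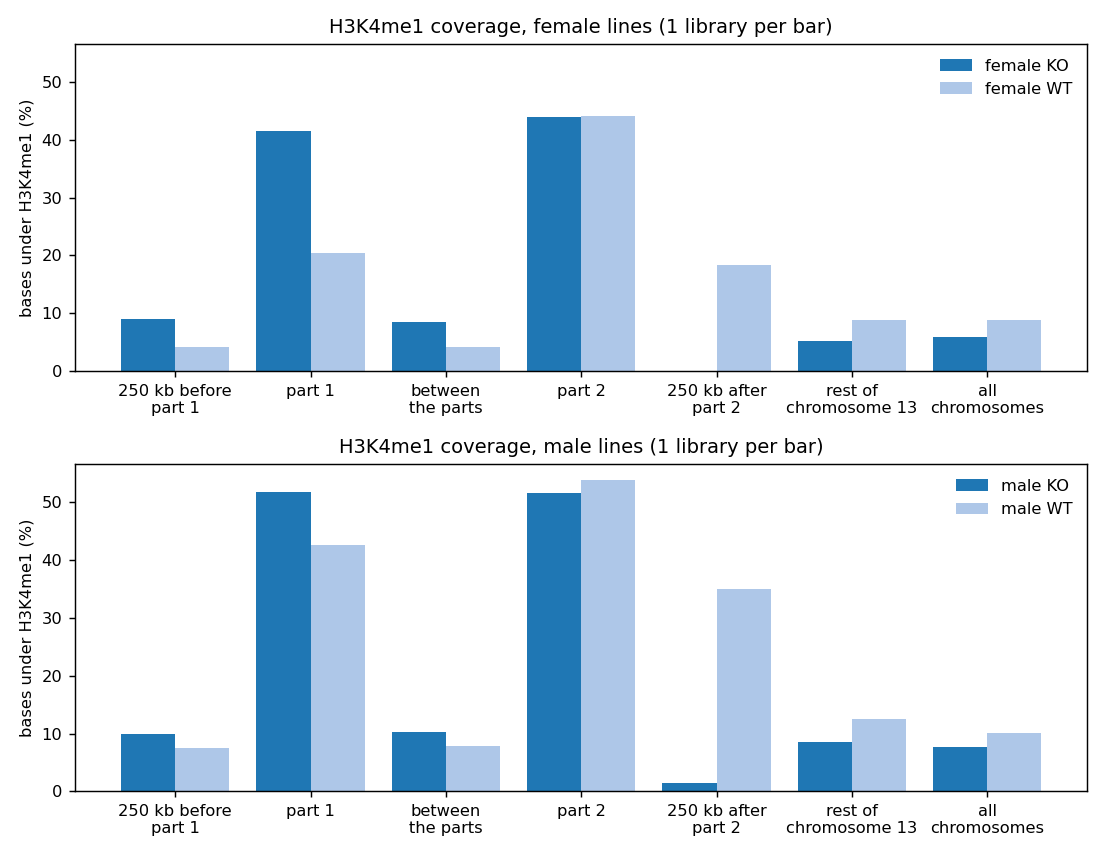
Share of bases under H3K4me1 (y axis, percent) in the 250 kb before part 1, part 1, the interval between the parts, part 2, the 250 kb after part 2, the rest of chromosome 13 and all chromosomes. Each bar is 1 library, KO left of WT, with the female lines in the upper and the male lines in the lower panel. KO is above WT before part 1, in part 1 and between the parts in both sexes (41.5% and 20.4% in part 1 of the female lines), near WT in part 2, and below it in the other areas.

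When the cluster was cut into pieces of 50 kb, the female lines differed most in chr13:21990001-22040000, where female KO covered 42.2 kb and female WT 5.2 kb. Male KO covered 45.6 kb there and male WT 43.4 kb. Female WT was thus the low one of the 4 lines in this stretch. H3K4me3 of that same line covered 24.8 kb and H3K27ac 13.6 kb there. The male lines differed most in another piece, chr13:21790001-21840000, where male KO covered 31.4 kb and male WT 18.8 kb. Female KO covered 16.8 kb in that piece and female WT 14.6 kb. The surplus of KO in part 1 was thus largest at different places in the female and male lines.

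The leading H3K4me1 regions differed between the lines in the stretch chr13:21990001-22040000. Female KO was led by chr13:22011201-22032400 with 787 reads over 21.2 kb, followed by chr13:23610801-23622600 with 619, chr13:21996401-22009200 with 590, chr13:23847001-23856800 with 377 and chr13:23627401-23636000 with 329. Female WT was led by chr13:23832001-23846200 with 620 reads over 14.2 kb, followed by chr13:23611001-23622800 with 417, chr13:23641601-23650000 with 294, chr13:23672201-23680400 with 280 and chr13:23799001-23806400 with 264. The regions of female KO with 787 and 590 reads lay in the stretch of 50 kb, while all 5 of female WT lay in part 2. Male KO was led by chr13:21995001-22035000, a region of 40.0 kb with 2390 reads that exceeded 99.6% of its list. The next of male KO were chr13:23610401-23622600 with 965 reads, chr13:23623801-23636200 with 902, chr13:21834001-21845800 with 793 and chr13:23637401-23647400 with 688. Male WT was led by chr13:21994001-22012000 with 1016 reads over 18.0 kb, in the same stretch, followed by chr13:23623201-23635200 with 738, chr13:23748801-23757800 with 684, chr13:23611001-23622400 with 672 and chr13:23838601-23846400 with 574.

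Most H3K4me1 regions of the cluster were shared between the genotypes. Of the female WT regions, 46 of 51 overlapped one of female KO (90.2% [78.6 to 96.7]), against 48.9% of the whole list. Of the female KO regions, 44 of 57 overlapped one of WT (77.2%), close to 76.6% of the whole list. In the male lines 60 of 64 WT regions overlapped KO (93.8% [84.8 to 98.3]), against 58.0%, and 50 of 56 KO regions overlapped WT (89.3% [78.1 to 96.0]), against 74.6%. Between sexes 57 of 57 female KO regions overlapped male KO, against 84.0%, and 51 of 51 female WT regions overlapped male WT, against 77.7%. By bases less was shared: female KO and WT had 148.6 kb in common, 50.1% of the bases under either. In the male lines it was 254.8 kb, or 73.0%. Female KO covered 42.5% of the cluster and 5.98% over all chromosomes, and male KO 51.7% and 7.65%. An overlap of 1 bp is thus easier to reach in the cluster, and the part of this in the shares was not tested.

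Female KO had 13 H3K4me1 regions with no counterpart in female WT, 11 of them in part 1. After the leading one came chr13:22105601-22112800 with 242 reads and chr13:21987201-21991600 with 169. Male KO overlapped all 13, as it did all 57 female KO regions of the cluster. Male WT overlapped 8 of the 13, against 52 of all 57. The same shares for such regions over all chromosomes were not computed. On H3K4me3 islands of female WT lay 8 of the 13, against 30.4% of such regions over all chromosomes. Of all 57 female KO regions of the cluster, 49 lay on these islands (86.0%), so the share of the 13 was not high for the cluster. The 5 regions of female WT alone were smaller and lay off the islands: chr13:23684201-23687800 with 124 reads, chr13:23700601-23702400 with 67, chr13:21851201-21853000 with 49, chr13:23809201-23810600 with 47 and chr13:21819601-21820600 with 38. None of the 5 overlapped H3K4me3, against 9.9% over all chromosomes and 43 of all 51 female WT regions of the cluster.

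Male KO had 6 H3K4me1 regions with no counterpart in male WT, 5 of them in part 1, and the largest read counts were 82 at chr13:22072801-22074400, 72 at chr13:23714801-23716200 and 68 at chr13:21801001-21802000. These 3 of the 6 lay on an H3K4me3 island, against 33.1% over all chromosomes and 49 of all 56 male KO regions of the cluster. Male WT had 4 of its own, all in part 2: chr13:23764801-23767000 with 98 reads, chr13:23700201-23702200 and chr13:23867401-23870600 with 94 each, and chr13:23807601-23810200 with 69. None lay on an H3K4me3 island, against 3.56% over all chromosomes and 54 of all 64 male WT regions of the cluster. With so few regions, the intervals of 8 of 13 [31.6 to 86.1%], 0 of 5 [0 to 52.2%], 3 of 6 [11.8 to 88.2%] and 0 of 4 [0 to 60.2%] are wide, and the last 3 include the share over all chromosomes.

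On the shoulders of the H3K4me3 islands H3K4me1 was more frequent than over the whole H3K4me3 list in both male lines, and in female KO only with all regions used. An island counted as flanked when H3K4me1 reached into the 1000 bp on each side. This held for 35 of 45 islands in female KO (77.8% [62.9 to 88.8]) and 16 of 45 in female WT (35.6% [21.9 to 51.2]). It held for 40 of 45 in male KO (88.9% [75.9 to 96.3]) and 34 of 45 in male WT (75.6% [60.5 to 87.1]). Over the whole H3K4me3 list the shares were 53.4% and 47.4% in female KO and WT, and 65.4% and 54.0% in male KO and WT. The intervals of female KO, male KO and male WT lay above the share of the whole list, and that of female WT included it. With the upper 50% of each list by reads, female KO had 42.4% [25.5 to 60.8] in the cluster, against 38.6% of the whole list, and female WT 27.3% [13.3 to 45.5], against 29.5%. In the male lines KO then had 84.8% [68.1 to 94.9], against 47.6%, and WT 51.5% [33.5 to 69.2], against 31.2%. In the female lines both intervals then included the share of the whole list. H3K4me1 overlapped 41 of 45 islands in female KO, against 77.8%, and 32 of 45 in female WT, against 81.1%. In the male lines it overlapped 44 of 45 in KO, against 90.8%, and 43 of 45 in WT, against 82.9%.

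The 13 islands without H3K4me1 of female WT held a median of 255 H3K4me3 reads (66 to 1748), and the other 32 islands 1072.5 (38 to 2714). The ranges overlapped widely. Of the 13, 12 lay in part 1, 6 had H3K27ac and 5 had MLL4 of KO, while of the other 32, 15 lay in part 1, 29 had H3K27ac and 14 had MLL4 of KO. Of the 13, H3K4me1 was listed at 10 in female KO, at 12 in male KO and at 11 in male WT. Over the whole H3K4me3 list H3K4me1 overlapped 77.8%, 90.8% and 82.9% of islands in these lines. Over all chromosomes, islands without H3K4me1 of female WT were not examined in this way, so these counts have no background.

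Read outward from the island border, H3K4me1 in the cluster lay over 81.1% of borders in female KO and 47.8% in female WT at 100 bp outside, and over 54.4% and 28.9% at 2100 bp outside. In the male lines it lay over 92.2% of borders in KO and 81.1% in WT at 100 bp, and over 68.9% and 52.2% at 2100 bp. Over all islands of the genome the values at 100 bp were 62.7% and 58.9% in female KO and WT, and 75.4% and 64.4% in male KO and WT, so KO was above WT near the border there too. At 2100 bp they were 28.8% and 31.1% in female KO and WT, and 29.1% and 33.2% in male KO and WT. Islands stand close together in the cluster, and at 2100 bp from a border 28.9% of the positions already lay in another H3K4me3 island, against 6.35% over all islands. How far this spacing sets the H3K4me1 values was not tested. Inside the islands, 1100 bp from the border, H3K4me1 lay over 89.4% of 66 borders in female KO and 63.6% in female WT, against 81.9% and 80.8% over all islands. In the male lines it was 92.4% in KO and 93.9% in WT, against 90.1% and 78.1%. Deeper, at 1900 bp and over 44 borders, the shares were 54.5% in female KO and 54.5% in female WT, against 78.0% and 74.2%, and 70.5% in male KO and 63.6% in male WT, against 81.2% and 71.1%.

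**Figure D4:**
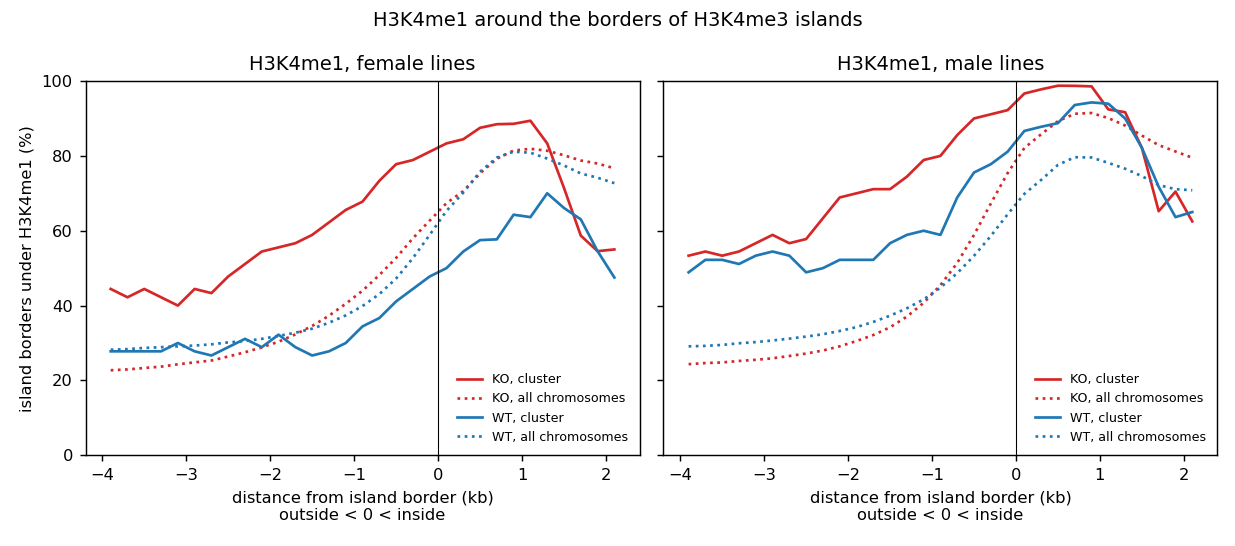
Share of H3K4me3 island borders under H3K4me1 (y axis, percent) by distance from the border in kb (x axis, outside negative, inside positive), for female lines (left panel) and male lines (right panel). Solid lines are the 45 islands of the cluster and dotted lines all 24492 islands. In the cluster KO is above WT outside the border in both sexes, 81.1% and 47.8% at 100 bp in the female lines and 92.2% and 81.1% in the male lines.

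H3K4me1 was broken by short gaps beneath the H3K4me3 islands. Of the gaps of at most 3000 bp between neighbouring H3K4me1 regions, 26 of 37 overlapped H3K4me3 in female KO and 20 of 27 in female WT, against 38.4% and 24.6% over all chromosomes. In the male lines it was 25 of 38 in KO and 25 of 40 in WT, against 36.9% and 22.1%. The median length of these gaps was 800 bp in female KO and 600 bp in each of the other lines. At 10 places a stretch of 200 to 600 bp was in such a gap in all 4 lists, 5 in each part, and, since such gaps were taken only where they overlapped H3K4me3, all lay at islands. The longest were chr13:23662801-23663400 and chr13:23775601-23776200, 600 bp each. MLL4 of KO overlapped 3 of the 10, both of these among them, against 23.1% of such stretches over all chromosomes. Such shared stretches numbered 16.4 per Mb in the cluster and 0.425 per Mb over all chromosomes. H3K4me3 islands were also denser in the cluster, and their part in this and in the gap shares above was not tested. Of the 22 MLL4 regions of KO, 11 met a gap of female KO under H3K4me3, against 5.88% of the whole MLL4 list, and 5 met one of female WT, against 6.56%. For the male lines it was 9 with gaps of KO, against 6.34%, and 7 with gaps of WT, against 6.26%. These shares are not like for like, since only gaps that overlap H3K4me3 count. All 22 MLL4 regions of the cluster overlapped H3K4me3, against 39.2% of the whole MLL4 list.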

How the data were processed

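Of 12 ChIP-seq libraries, 11 came with a region list, 1 per group; the input library was not analysed here. The submitters' processing notes name Bowtie 1.1.2, SICER 1 and mm9 and state no role; the control, threshold and depth are not given in the sources used here. The deposited lists, which have no header, give a chromosome, start, end and a whole number, taken from its values as the count of reads per region. Borders lie on steps of 200 bp, and the smallest gap is 400 bp, 600 bp for H3K27ac and 800 bp for H3K27me3. Counts depend on depth and threshold, so regions were ranked by them only against their own list. How Bowtie treated reads from near-identical histone genes is not stated, so regions over such copies are uncertain.

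Positions count from 1 in mm9. Overlap meant at least 1 bp. Shares in the cluster were compared with those of the whole list where these are given; no test or p-value was computed. Regions were named by reads: the leading 5 per mark or MLL4 list, those in 1 genotype alone (the leading 3 where over 5), and all of KDM6A; other named regions were chosen after their values were seen. The members, lists and measures were chosen with earlier results of these data known, and the gap measure, the windows and the cut of the MLL4 and KDM6A lists after seeing these regions. Promoters came from RefSeq, GRCm38.p6. Python 3.11.15, numpy 2.4.6, pandas 2.3.3, scipy 1.17.1 and matplotlib 3.10.9 were used; overlap steps were tested on simulated data and against bedtools 2.31.1.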

Additional observations from a re-analysis of the deposited data

Results flagged for a closer look

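The number of H3K4me1 regions in the cluster went opposite ways in the 2 sexes, KO minus WT being 6 in the female lines and -8 in the male lines. In part 1 the difference was 5 regions in the female and -4 in the male lines, and in part 2 it was 1 and -4. With 1 library per line this difference between sexes was not tested. The bases covered were higher in KO in part 1 in both sexes and had no stable direction in part 2. The leading region of male KO in part 1 spans 40.0 kb, which counts once.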

How the results depend on the processing

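No paired analysis was possible because each group held 1 library, all numbered 1. Of 118 values recomputed under other settings, 81 stayed close to their main value (within 1.5 times for counts and coverage, within the 95% interval for shares), 35 moved further and 2 reversed. Counting a region by its midpoint moved none of the 11 region counts beyond that, and flanks of 400 or 2000 bp moved none of the 4 flank shares.

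With the upper 50% of each list by reads, the cluster held 1 KDM6A region of KO and 0 of WT, 12 MLL4 regions of KO and 0 of WT, 34 H3K4me1 regions of female KO and 29 of female WT, 38 of male WT, and 23 of H3K27ac; fewer regions follow from the shorter lists. There 61.8% of female KO and 76.7% of male KO H3K4me1 regions overlapped WT, and H3K4me1 flanked 42.4% of the islands in female KO and 51.5% in male WT. With 50% of a region required, MLL4 of KO covered 4.44% of the islands, since MLL4 regions are shorter than islands, and 61.4% of the female KO H3K4me1 regions were shared. With lists of equal number, 97.1% of the female WT and 61.4% of the female KO H3K4me1 regions were shared. The shared part of the whole H3K4me1 lists was not computed under these settings. The values can therefore not be called high or low for the cluster.

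Alternatives chosen after seeing the data were these. With the KO list cut to the number of WT regions, 6 MLL4 and 1 KDM6A region of KO remained. The ratio of H3K4me1 bases in KO to WT stayed above 1 in part 1, at 2.59 with the WT list cut to the number of KO regions and 2.52 with the upper 50% in the female lines, and at 1.26 and 1.54 in the male lines. In part 2 it reversed to 1.09 in the female lines with the cut and to 1.03 in the male lines with the upper 50%; the cause was not tested, and part 2 has no stable direction. The unknown depth of each library limits every comparison between lists.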

Other observations

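Just beyond the right border of part 2 the chromatin differed from that of the cluster. In the 250 kb after it the female WT line listed 10 H3K27me3 regions over 81.8 kb (32.7% of the bases) and 1 H3K4me3 region. H3K4me1 was listed there in no region of female KO and in 7 regions of female WT over 45.8 kb. Male KO had 3 regions, which covered 3.6 kb, and male WT 14, which covered 87.6 kb. The 250 kb before part 1 held 1 H3K27me3 region over 10.2 kb and 5 H3K4me3 islands. The stretch after part 2 was looked at after its values were seen, and the difference was not tested.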
